A study of Mus musculus with 2 samples.

Results

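Trp53, the gene of the p53 transcription factor, and 9 genes that p53 is known to switch on (Mdm2, Cdkn1a, Ccng1, Trp53inp1, Phlda3, Zmat3, Sesn2, Eda2r and Aen) were followed across the cell types of mouse bone marrow. The 10 genes were taken by symbol from the 32285 genes of the count matrices, and each had 1 matching entry. The data were single-cell RNA counts from the marrow of mice aged 2 months, with 1 animal and 1 library for each genotype, control and DKO. The DKO mouse carried VavCre:Ddx41 fl/fl together with cGAS-/-, so that Cre driven by the Vav promoter removed the RNA helicase Ddx41 in hematopoietic cells and the gene of the DNA sensor cGAS was deleted throughout the body. The control, labelled WT, was a littermate with the Ddx41 fl/fl alleles, no VavCre and wild-type cGas. The alleles of Ddx41 and cGAS therefore differed together between the mice, and the effects of either allele, of the animal and of the library cannot be told apart.

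After filtering, 18635 control cells with 118752663 unique molecular identifiers (UMIs, counted RNA molecules) and 13723 DKO cells with 114719859 UMIs remained. The median was 4876 UMIs per control cell and 6903 per DKO cell, and 75 cell barcodes occurred in both libraries. The cells fell into 30 clusters, and the named clusters made up 15 classes with at least 50 cells in each library, called by the cell type whose marker genes they held. Levels are given as UMI counts scaled to the total of the class and library (CPM, counts per 1000000), and ratios as the log2 of DKO over control with 1 UMI added to each library. Brackets after a value hold its 95% interval, which reflects counting error alone. With 1 mouse per genotype, no test between genotypes could be made. In bulk sums of this kind, a class level can also shift because the cells within the class shift. In all cells together, Ddx41 had 2406 control UMIs (20.3 CPM) and 919 DKO UMIs (8.01 CPM), which gives a log2 ratio of -1.34 (-1.45 to -1.23), and its ratio was below 0 in all 15 classes. Cgas had 1612 and 829 UMIs, a log2 ratio of -0.91 (-1.03 to -0.79), and its only ratio above 0 was in stromal-like cells, on 7 control and 6 DKO UMIs. Which part of either gene was deleted relative to the counted 3' ends was not given in the sources used here, so the remaining UMIs do not show that intact RNA remained.

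In cells without damage, p53 protein is kept low by Mdm2, a ubiquitin ligase that binds p53 and marks it for degradation. DNA damage, ribosome defects and other stresses free p53 from Mdm2, and p53 then binds response elements near its target genes and raises their transcription. Because p53 is controlled mostly as a protein, the level of Trp53 RNA does not report p53 activity, whereas the RNA of its targets is widely used as a readout. In red cell precursors, p53 activation is known from disorders of ribosome production, in which it stops the cell cycle and causes anemia. The targets have different roles. Mdm2 acts back on p53, Cdkn1a (p21) and Ccng1 (cyclin G1) act on the cell cycle, and Trp53inp1 and Aen (a nuclease) act in cell death. Phlda3 restrains Akt signaling, Zmat3 binds RNA and affects splicing, Sesn2 acts in the response to oxidative and nutrient stress, and Eda2r is a receptor of the tumor necrosis factor family.

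By the GENCODE M21 annotation of GRCm38 (mm10), all 10 genes are protein coding. Trp53 lies at chr11:69580359-69591873 on the plus strand and Ccng1 at chr11:40748552-40755311 on the minus strand. Mdm2 is at chr10:117688875-117710758 (minus), Cdkn1a at chr17:29090976-29100727 (plus), and Aen at chr7:78895854-78911209 (plus). Trp53inp1 is at chr4:11156431-11174379 (plus), Sesn2 at chr4:132492032-132510501 (minus), Zmat3 at chr3:32334792-32366014 (minus), Phlda3 at chr1:135766119-135769136 (plus) and Eda2r at chrX:97333840-97377216 (minus). Sesn2 overlaps the noncoding gene Gm12981 on its own strand, and Cdkn1a overlaps the gene model AC167363.2 on the other strand. No other member overlaps an annotated gene.

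The start regions of these genes differ in how closely they match the p53 response element, which is why 4 of them are shown. RefSeq promoter windows (GRCm38.p6, 250 bases before to 50 bases after a transcript start) were at hand for 8 of the 10 genes, and none was given for Trp53inp1 or Zmat3. Each was searched for the p53 consensus of 2 adjoining decamers without a spacer, which reads the same on both strands, and the best 20-base match with its 4 core C and G letters intact was kept. In the sequences, capitals mark that match, and each window reads 5' to 3' on the strand of its gene.
Cdkn1a, chr17:29090729-29091028, plus strand: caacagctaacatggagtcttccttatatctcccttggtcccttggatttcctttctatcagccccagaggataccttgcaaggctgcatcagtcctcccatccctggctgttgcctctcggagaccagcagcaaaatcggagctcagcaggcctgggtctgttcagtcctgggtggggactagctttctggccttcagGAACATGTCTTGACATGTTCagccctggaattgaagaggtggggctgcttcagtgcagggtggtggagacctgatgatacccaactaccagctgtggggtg
Ccng1, chr11:40755237-40755536, minus strand: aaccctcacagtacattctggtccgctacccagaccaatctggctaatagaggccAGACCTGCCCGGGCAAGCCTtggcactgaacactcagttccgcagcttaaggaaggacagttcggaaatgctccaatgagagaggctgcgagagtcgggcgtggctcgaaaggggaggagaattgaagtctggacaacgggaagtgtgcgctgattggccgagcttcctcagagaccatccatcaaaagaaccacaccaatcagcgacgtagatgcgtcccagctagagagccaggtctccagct
Aen, chr7:78895677-78895976, plus strand: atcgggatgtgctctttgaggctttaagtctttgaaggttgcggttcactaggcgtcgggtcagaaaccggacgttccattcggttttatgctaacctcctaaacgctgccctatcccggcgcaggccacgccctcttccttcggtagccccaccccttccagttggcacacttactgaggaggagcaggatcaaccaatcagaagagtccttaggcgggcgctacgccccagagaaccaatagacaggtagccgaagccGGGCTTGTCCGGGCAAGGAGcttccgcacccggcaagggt
Trp53, chr11:69580109-69580408, plus strand: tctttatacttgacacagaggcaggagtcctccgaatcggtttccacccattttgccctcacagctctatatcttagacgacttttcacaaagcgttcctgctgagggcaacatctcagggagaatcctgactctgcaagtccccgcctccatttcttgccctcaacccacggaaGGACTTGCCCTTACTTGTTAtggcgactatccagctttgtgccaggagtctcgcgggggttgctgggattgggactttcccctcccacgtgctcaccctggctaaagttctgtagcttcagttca
The shown Cdkn1a and Ccng1 windows each matched 19 of the 20 consensus letters, as did 0.067% of the 32851 mouse promoter windows at this or a better match. The Aen and Trp53 windows matched 17 letters, a level that 1.38% of all windows reached. A second Cdkn1a start, with its window at chr17:29093519-29093818, matched 13 letters, which 39.5% of windows reached. Phlda3 matched 15 letters, as many as 12.4% of windows, and the best matches in Mdm2, Sesn2 and Eda2r had 11 letters, which 61.3% of windows reached. A match describes the letters of these 300 bases only, and elements elsewhere, such as in introns, were not searched.

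Trp53 RNA varied over a wide range between cell classes. Basophil or mast-like cells, whose cluster also held progenitor genes (Gata2, Meis1 and Angpt1), had the highest level of both libraries, 200.5 CPM (188 to 214) for control and 168 CPM (152 to 184) for DKO. With finer clusters, 185 cells formed a basophil or mast-like cluster. Another 380 cells, led by Angpt1 and Meis1, formed one named cKit+ progenitor. Values of the basophil or mast-like class, here and below, therefore cannot be credited to basophils or mast cells alone. Next in the control library came pro-B or pre-B-like cells at 129 CPM (119 to 140) and granulocyte-monocyte progenitor-like cells at 125 CPM (119 to 131), which did not differ beyond their counting intervals. Dendritic-like (104 CPM) and T or NK-like cells (103 CPM) followed, again with overlapping intervals, and then B cell-like (85.5 CPM), early erythroid-like (81.6 CPM) and monocyte-like cells (64.1 CPM). The low end was held by immature neutrophil-like cells at 14.4 CPM, mature neutrophil-like cells at 8.30 CPM and late erythroid-like cells at 5.51 CPM. The 3 genes whose levels followed Trp53 most closely over the 15 classes of both libraries were Nop58 (Pearson r 0.972), Ppie (0.966) and Snhg8 (0.965), out of 6237 genes and over 30 points that share their libraries. Among the targets, Aen followed Trp53 most closely (r 0.890), with Ccng1 next (r 0.497). The other targets lay lower, down to -0.13 for Trp53inp1 and -0.20 for Sesn2.

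**Figure D1:**
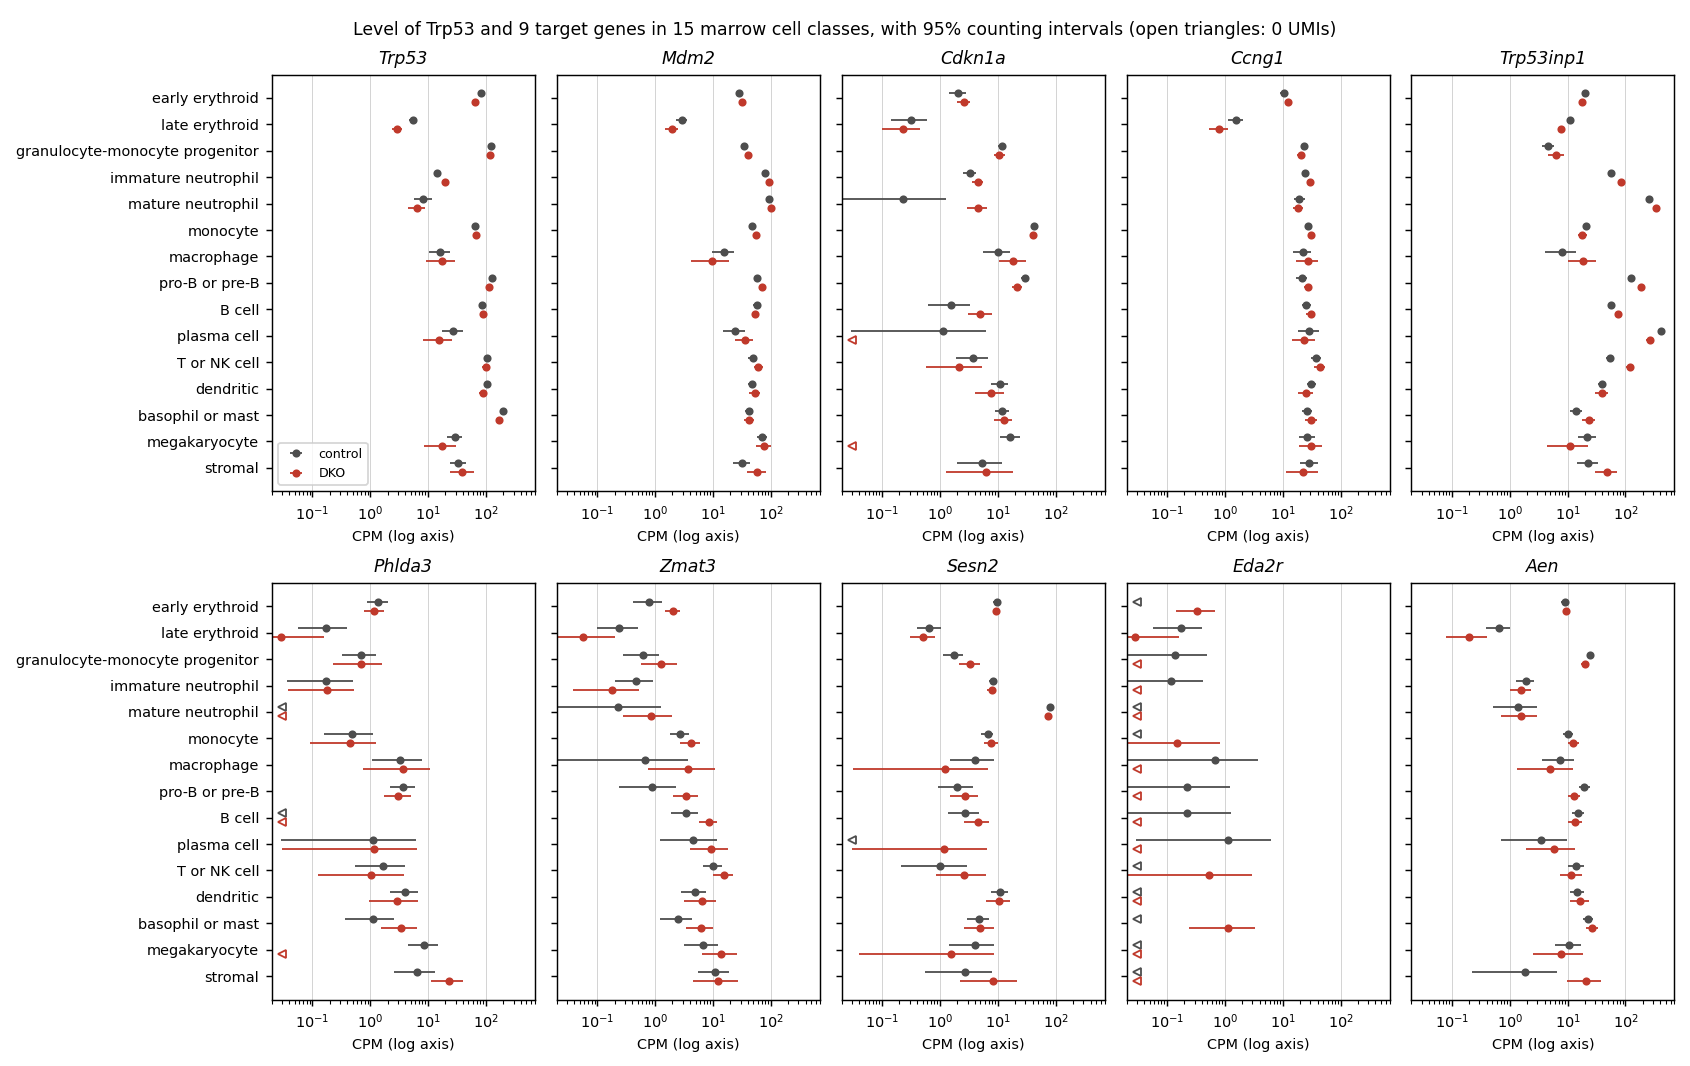
Level of Trp53 and its 9 target genes in each cell class (CPM, log axis), with control in grey and DKO in red. Points are levels of 1 library, bars are 95% Poisson counting intervals, and open triangles mark classes with 0 UMIs. Trp53 runs from 5.51 to 200.5 CPM over the control classes.

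Between genotypes, Trp53 RNA was lower or alike in the DKO library in most classes. In early erythroid-like cells 1359 UMIs were counted for control and 1564 for DKO, or 81.6 and 65.8 CPM, a log2 ratio of -0.31 (-0.42 to -0.21). In late erythroid-like cells the levels were 5.51 and 2.94 CPM, a ratio of -0.90 (-1.28 to -0.54), with an upper limit for free RNA from other cells of 23.7% of these UMIs for control and 21.1% for DKO. Ratios with an interval below 0 were also found in basophil or mast-like cells, -0.26 (-0.43 to -0.09), and in pro-B or pre-B-like cells, -0.17 (-0.34 to -0.01). Immature neutrophil-like cells went the other way, with 14.4 and 19.4 CPM and a ratio of 0.43 (0.18 to 0.67). For the remaining 10 classes the interval included 0. When the clusters within early erythroid-like cells were given equal weights in both libraries, the Trp53 ratio was -0.12.

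Mdm2, the negative regulator of p53, was highest in mature neutrophil-like cells, at 92.9 CPM (84.1 to 102) for control and 101 CPM (93.0 to 110) for DKO, with immature neutrophil-like cells next at 80.5 and 94.2 CPM. Late erythroid-like cells had 2.91 and 1.94 CPM. The DKO over control ratio of Mdm2 was above 0 in 12 of the 15 classes, and its interval lay above 0 in 6 of them. Over all genes that reached a mean of 20 CPM, 29.4% of gene and class pairs had an interval above 0 and 18.3% one below 0, and the median gene was above 0 in most classes. The 6 classes with an Mdm2 interval above 0 were early erythroid-like cells at 0.22 (0.05 to 0.39), immature neutrophil-like cells at 0.23 (0.12 to 0.33), monocyte-like cells at 0.24 (0.04 to 0.43), granulocyte-monocyte progenitor-like cells at 0.24 (0.02 to 0.45), pro-B or pre-B-like cells at 0.29 (0.06 to 0.53) and stromal-like cells at 0.88 (0.10 to 1.63). These differences were small except in stromal-like cells, where they rest on 35 control and 28 DKO UMIs and the ratio was 0.81 (-0.04 to 1.60) without the cell with the most Mdm2 UMIs in each library. The median gene ratio in stromal-like cells was 0.42. Late erythroid-like cells had a ratio of -0.58 (-1.07 to -0.11), on 84 and 68 UMIs, but it was 0.13 with the coarser clusters of resolution 0.5, and within each hemoglobin stage from 75% up the Mdm2 interval included 0.

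Cdkn1a, whose protein p21 stops the cell cycle, was concentrated in a few classes. Monocyte-like cells had 41.8 CPM (37.9 to 45.9) for control and 40.3 CPM (35.7 to 45.4) for DKO. Pro-B or pre-B-like cells were next with 134 UMIs (29.6 CPM) and 111 UMIs (21.3 CPM), a log2 ratio of -0.47 (-0.85 to -0.10). Erythroid-like cells held little, with 34 and 62 UMIs in early cells (2.04 and 2.61 CPM) and 9 and 8 UMIs in late cells. Mature neutrophil-like cells had 1 control UMI and 26 DKO UMIs, the latter in 18 of 1655 cells, a ratio of 3.33 (1.67 to 9.63). B cell-like cells had 7 and 19 UMIs, a ratio of 1.54 (0.35 to 3.16), but 6 of the DKO UMIs came from 1 cell and without it and the top control cell the ratio was 1.22 (-0.16 to 3.02). Megakaryocyte-like cells had 25 control and 0 DKO UMIs. Against a floor of 3 UMIs the DKO level was 3.54-fold lower, and the upper limit of the log2 ratio was -1.42. Yet 21 of the 25 control UMIs came from 1 cell. Genes most like Cdkn1a over the classes were Echs1 (r 0.741), Gas2l3 (0.732) and Ptrhd1 (0.731), a weaker likeness than that of Trp53.

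Ccng1, whose product is an unusual cyclin that recruits a phosphatase to Mdm2, varied less between non-erythroid classes than Mdm2 or Trp53 did. Outside the erythroid lineage its control levels lay between 19.4 CPM in mature neutrophil-like cells and 37.6 CPM in T or NK-like cells, and the DKO levels between 18.5 and 44.2 CPM in the same 2 classes. Early erythroid-like cells had 10.6 and 12.1 CPM and late erythroid-like cells 1.56 and 0.80 CPM. The ratio had an interval above 0 in immature neutrophil-like cells only, 0.28 (0.09 to 0.47), and below 0 in late erythroid-like cells only, -0.95 (-1.70 to -0.25), on 45 and 28 UMIs. Tcf25 (r 0.921), Copa (0.912) and Tm9sf3 (0.904) had the most similar levels.

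Trp53inp1, which promotes cell death and autophagy, differed between libraries in both directions. In plasma cell-like cells the control level was 409 CPM (368 to 454) and the DKO level 262 CPM (229 to 299), a log2 ratio of -0.64 (-0.89 to -0.40) over 60 control and 53 DKO cells. Mature neutrophil-like cells had 256 CPM (241 to 272) and 337 CPM (322 to 352), a ratio of 0.40 (0.29 to 0.50). T or NK-like cells had 53.5 CPM (45.4 to 62.5) and 118 CPM (103 to 135), a ratio of 1.14 (0.85 to 1.45), and the intervals of the levels did not overlap. In the B lineage, pro-B or pre-B-like cells went from 125 to 183 CPM, a ratio of 0.55 (0.40 to 0.70), and B cell-like cells from 57.2 to 74.3 CPM, 0.38 (0.13 to 0.63). Immature neutrophil-like cells had 56.8 and 84.5 CPM, a ratio of 0.57 (0.45 to 0.69). In their 3 clusters the ratios were lower, 0.47 (0.20 to 0.73), 0.40 (0.26 to 0.54) and -0.22 (-0.71 to 0.26), and with the clusters weighted alike the class ratio was 0.37. Non-erythroid cells together had a ratio of 0.82 (0.76 to 0.88), which also contains their different class shares, and early erythroid-like cells had -0.17 (-0.38 to 0.04). Late erythroid-like cells had -0.51 (-0.75 to -0.28), which turned to 0.035 with hemoglobin stages weighted alike in both libraries. Macrophage-like, basophil or mast-like and stromal-like cells also had intervals above 0, on 61 DKO UMIs at most. The mature neutrophil-like difference came from the larger of 2 clusters, 0.42 (0.30 to 0.54), and in the other the ratio was -0.21 (-0.48 to 0.05). Among deep barcodes alone, those above an order-of-magnitude UMI threshold, the mature neutrophil-like ratio of Trp53inp1 was -0.17. The threshold was 4869 UMIs for control and 6164 for DKO, and the class medians were 2587 and 3213 UMIs. This setting thus kept only the deeper cells of the class, with a different cut in each library.

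**Figure D2:**
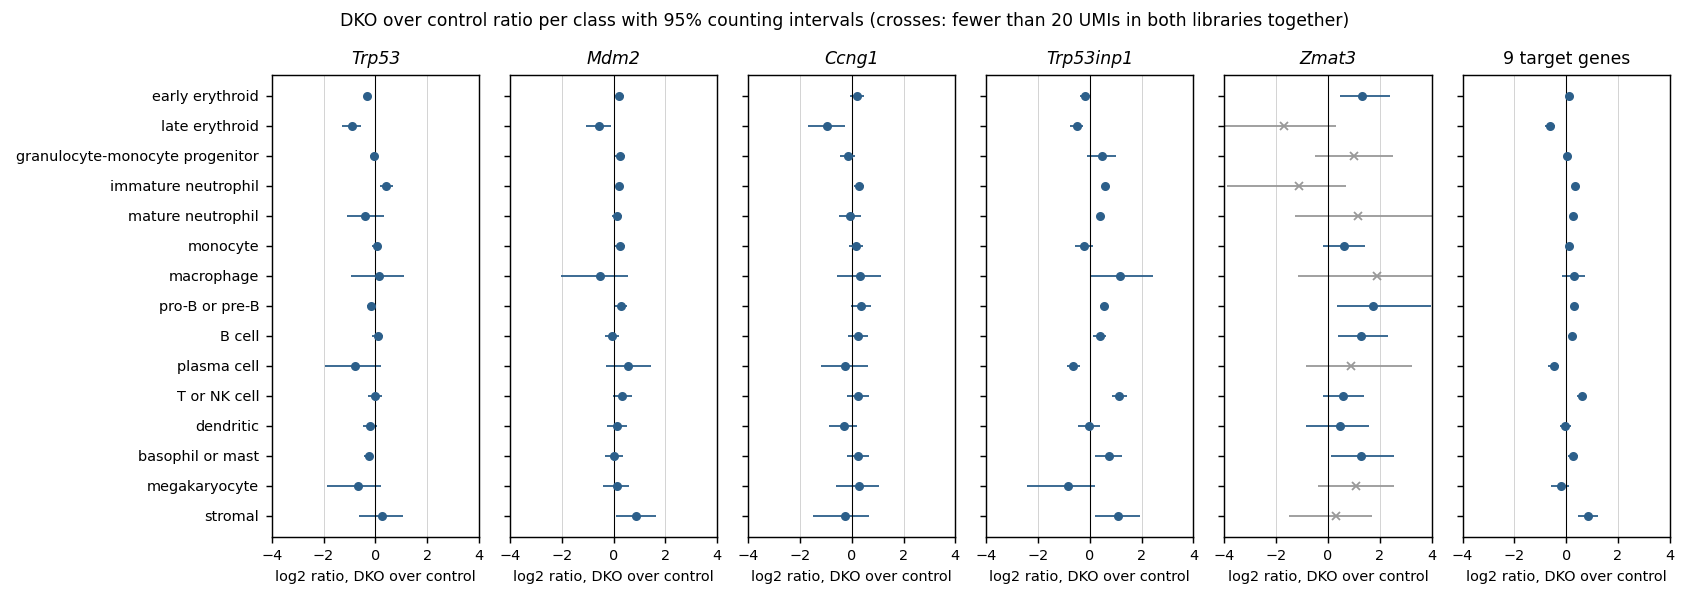
Log2 ratio of DKO over control in each class for Trp53, Mdm2, Ccng1, Trp53inp1, Zmat3 and the sum of the 9 target genes, with 95% counting intervals. Grey crosses rest on fewer than 20 UMIs. Trp53inp1 lies at 1.14 in T or NK-like cells and at -0.64 in plasma cell-like cells. Zmat3 lies above 0 in all 7 classes with at least 20 UMIs over both libraries together, a minimum that DKO UMIs help to reach.

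Zmat3, an RNA-binding zinc finger protein, was low everywhere, with 185 control and 236 DKO UMIs in all cells. Of the 7 classes with at least 20 UMIs over both libraries together, all had a ratio above 0 and 4 had an interval above 0. A class can reach that minimum through its DKO UMIs, and no share of all genes was computed at such low levels, so the count does not set Zmat3 apart. Early erythroid-like cells had 13 control UMIs, each in another cell, and 48 DKO UMIs spread over 29 cells (0.78 and 2.02 CPM), a ratio of 1.29 (0.46 to 2.38). B cell-like cells had 15 and 32 UMIs, a ratio of 1.27 (0.39 to 2.31), pro-B or pre-B-like cells 4 and 18 UMIs, 1.72 (0.37 to 3.99), and basophil or mast-like cells 11 and 16 UMIs, 1.27 (0.11 to 2.56). Without the cell with the most Zmat3 UMIs in each library, the basophil or mast-like interval included 0 at 1.16 (-0.17 to 2.63), and those of the other 3 classes stayed above 0. The 2 classes with a ratio below 0, late erythroid-like and immature neutrophil-like cells, had 9 and 11 UMIs in both libraries together.

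Aen, a nuclease that degrades DNA in dying cells, had its highest control levels in granulocyte-monocyte progenitor-like cells (24.0 CPM, with 20.2 CPM for DKO) and basophil or mast-like cells (22.6 CPM, with 26.3 CPM for DKO). Its ratio was -0.57 (-1.05 to -0.10) in pro-B or pre-B-like cells and -1.60 (-3.21 to -0.41) in late erythroid-like cells, the latter on 19 and 7 UMIs. Stromal-like cells had 2 control and 10 DKO Aen UMIs (1.81 and 20.7 CPM). In that class the median gene ratio was 0.42, 37.4% of genes were at least 1.5-fold higher, and hemoglobin held 34.7% of control and 19.5% of DKO UMIs. Sesn2, a stress-induced inhibitor of growth signaling, was highest in mature neutrophil-like cells, with 78.6 CPM (70.5 to 87.4) and 73.7 CPM (66.9 to 81.1) there and at most 10.8 CPM in any other class. Its ratio was 0.95 (0.07 to 1.81) in granulocyte-monocyte progenitor-like cells, on 25 and 24 UMIs, and near 0 in mature neutrophil-like cells, -0.09 (-0.30 to 0.12). Phlda3, with 118 and 89 UMIs in all cells, and Eda2r, with 13 and 14, were too scarce for most classes. Stromal-like cells, with the median gene ratio of 0.42 given above, had 7 and 11 Phlda3 UMIs, a ratio of 1.78 (0.35 to 3.45). Eda2r had 0 control and 8 DKO UMIs in early erythroid-like cells, 1.87-fold higher in DKO against the floor of 3 UMIs. Without the DKO cell with the most, 0 and 6 UMIs remained and the interval of the ratio reached below 0 (lower limit -0.28). From 40 to 75% hemoglobin, Eda2r had 5 control UMIs, all in 1 cell, and 0 DKO UMIs.

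The count of larger differences was small. A member was compared with other genes where its mean over both libraries reached 20 CPM, which held for 49 of 150 pairs of a member and a class. Of these 49 pairs, 3 were at least 1.5-fold higher in DKO (6.12%) and 3 at least 1.5-fold lower (6.12%), beside 8.60% and 5.19% of all gene and class pairs. The higher pairs were Trp53inp1 in T or NK-like cells, where 10.4% of genes were as much higher, and Mdm2 and Trp53inp1 in stromal-like cells, where 37.4% were. The lower pairs were Trp53 and Trp53inp1 in plasma cell-like cells (27.6% of genes) and Trp53 in megakaryocyte-like cells (10.1%), and both Trp53 intervals included 0. The shares of members are near those of all genes. No member reached 20 CPM in late erythroid-like cells, where 26.9% of genes were at least 1.5-fold lower and 0.299% higher, and where the median of 669 genes was -0.22. Summed over the 9 targets, the ratio was above 0 in 11 of 15 classes, and the median gene was above 0 in most classes too. The interval of the sum lay above 0 in 8 classes, B cell-like, basophil or mast-like and stromal-like cells among them, and below 0 in 2. The sum was 0.34 (0.27 to 0.41) in immature neutrophil-like cells, 0.26 (0.18 to 0.34) in mature neutrophil-like cells, 0.32 (0.21 to 0.43) in pro-B or pre-B-like cells and 0.60 (0.41 to 0.78) in T or NK-like cells, most of it from Trp53inp1. Among deep barcodes alone, whose UMI thresholds lie above the mature neutrophil-like medians, the sum in that class was -0.26. The median over all genes in these 4 classes was 0.17, 0.05, 0.08 and 0.13. In early erythroid-like cells the sum had a ratio of 0.10 (0.00 to 0.20), or -0.0034 with cells thinned to 2000 UMIs, in late erythroid-like cells -0.62 (-0.81 to -0.43) and in plasma cell-like cells -0.48 (-0.70 to -0.26).

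Because hemoglobin RNA fills most of a maturing red cell, erythroid-like cells were next split by the share of their UMIs that came from hemoglobin genes, and levels were computed from the other UMIs alone. Trp53 RNA dropped along this axis from 179 CPM (168 to 190) for control and 171 CPM (162 to 181) for DKO, in cells under 15% hemoglobin, to 13.3 and 5.82 CPM in cells of 90% and over. Its ratio was -0.06 (-0.18 to 0.06) under 15%, -0.15 (-0.45 to 0.16) from 15 to 40% and -0.50 (-0.81 to -0.17) from 40 to 75%, and in the 2 later stages the interval included 0. The median over all genes was -0.60 at 90% and over, and lay from -0.01 to 0.09 in the earlier stages. Ccng1 and Aen were also concentrated in the first stage, with 24.3 and 22.4 CPM in the control library there and 6.83 and 2.17 CPM in the next. Mdm2 had its highest control level later, with 29.9 CPM (25.7 to 34.5) in the first stage, 51.8 CPM (44.3 to 60.3) in the next and 40.6 CPM from 40 to 75%, and Trp53inp1 was highest from 40 to 75% hemoglobin in the control library (84.1 CPM) and from 75 to 90% in the DKO library (70.9 CPM). In the 75 to 90% stage the Trp53inp1 ratio was 0.67 (0.30 to 1.04), the reverse of its ratio in the first stage. Whether cells of the libraries lay at different places within that stage was not tested. The stages held different shares of the late cells: 3502 control and 1399 DKO cells were in the 75 to 90% stage, and 1373 and 2577 in the stage of 90% and over. Control cells were called here and DKO cells came already called, and the part of this difference in the shares was not tested. With these stages weighted alike in both libraries, the late erythroid-like ratio of Trp53 was -0.35 in place of -0.90, and that of the 9 targets -0.11 in place of -0.62.

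**Figure D3:**
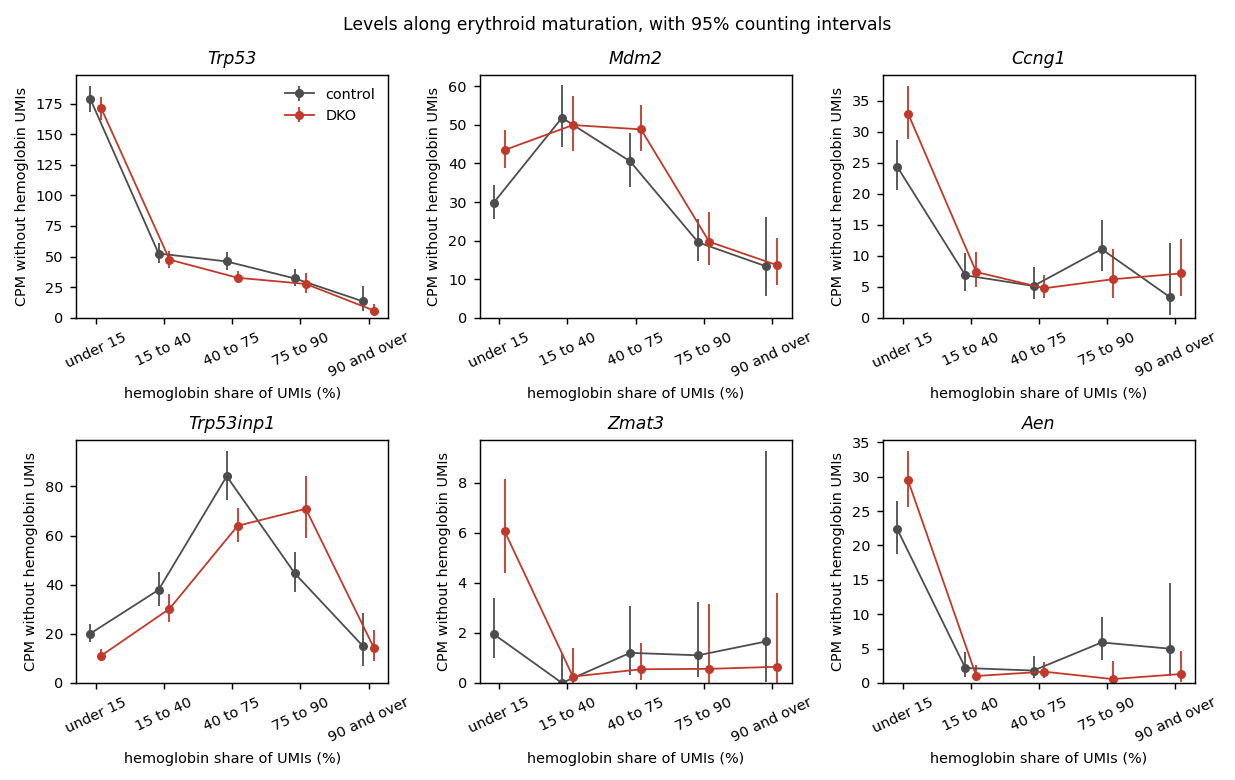
Levels of Trp53, Mdm2, Ccng1, Trp53inp1, Zmat3 and Aen in erythroid-like cells split by hemoglobin share (x axis, percent of UMIs), as CPM without hemoglobin UMIs, with 95% Poisson counting intervals. In cells under 15% hemoglobin, Mdm2, Ccng1, Zmat3 and Aen lie higher in the DKO library (red), Trp53inp1 lies lower and Trp53 is at 179 and 171 CPM.

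Erythroid-like cells under 15% hemoglobin (1025 control and 724 DKO cells), the lowest stage by hemoglobin share, were examined one gene at a time. Of these, 145 control and 56 DKO cells belonged to a cluster with late erythroid markers (led by Xpo7, March3 and Reln), so low hemoglobin did not mark early cells alone. Mdm2 had 184 control and 316 DKO UMIs, or 29.9 CPM (25.7 to 34.5) and 43.5 CPM (38.8 to 48.6), a log2 ratio of 0.54 (0.28 to 0.81). Ccng1 had 24.3 and 32.9 CPM, a ratio of 0.43 (0.13 to 0.74), and Aen 22.4 and 29.5 CPM, 0.39 (0.08 to 0.71). Zmat3 UMIs numbered 12 for control, in 12 cells, and 44 for DKO, in 25 cells, a ratio of 1.55 (0.69 to 2.69), and without the top cell of each library 1.38 (0.46 to 2.59). Eda2r had 0 and 8 UMIs, 2.26-fold higher in DKO against the floor of 3 UMIs, with a lower limit of 0.53 for the log2 ratio. Without its top cell 0 and 6 UMIs remained, and the lower limit was -0.005. Cdkn1a had 11 and 27 UMIs, a ratio of 0.99 (0.00 to 2.22), with 11 of the DKO UMIs in 1 cell. Without the top cell of each library the Cdkn1a ratio was 0.85 (-0.40 to 2.48). Phlda3 and Sesn2 were near 0, at 0.04 (-0.80 to 0.91) and -0.04 (-0.53 to 0.45). Trp53inp1 was lower, with 124 and 81 UMIs and a ratio of -0.85 (-1.27 to -0.44), or -0.65 (-1.12 to -0.19) without the cells of the late erythroid cluster.

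Only 4 members reached 20 CPM in these cells, and 0 of the 4 differed 1.5-fold, beside 2.47% of 5840 genes that were as much higher and 2.41% as much lower. For 3 of the 4, Mdm2, Ccng1 and Aen, the interval lay above 0, as it did for 35.4% of genes, and for 0 of 4 it lay below 0, as for 17.8%. Mdm2 stood at the 95.9th percentile of all gene ratios, Ccng1 at the 89.9th, Aen at the 86.4th and Trp53 at the 30.3rd. The sum of the 9 targets had a ratio of 0.31 (0.17 to 0.45), while the median gene was at 0.09. Cells of this stage came from several clusters. In the cluster with the most UMIs per cell (median 27743), led by Car1 and holding 151 control and 104 DKO cells, the sum was 0.45 (0.28 to 0.63), with Zmat3 at 1.72 (0.80 to 2.98), Ccng1 at 0.49 (0.15 to 0.84), Aen at 0.47 (0.14 to 0.81) and Mdm2 at 0.30 (-0.08 to 0.70). Cdkn1a had 0 control and 16 DKO UMIs there, but 11 of the 16 came from 1 cell. Of the Zmat3 UMIs in this stage, 10 of 12 were in that cluster for control and 41 of 44 for DKO. Without that cluster the sum was 0.07 (-0.15 to 0.30), Ccng1 was 0.25 (-0.40 to 0.94) and Aen -0.19 (-1.25 to 0.90), while Mdm2 was 0.74 (0.37 to 1.13). Under 5% hemoglobin the sum was 0.28 (0.12 to 0.45), but the intervals of Mdm2, 0.28 (-0.05 to 0.62), and Ccng1, 0.30 (-0.03 to 0.63), included 0. Among deep barcodes alone the sum was 0.39 (0.23 to 0.54).

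**Figure D4:**
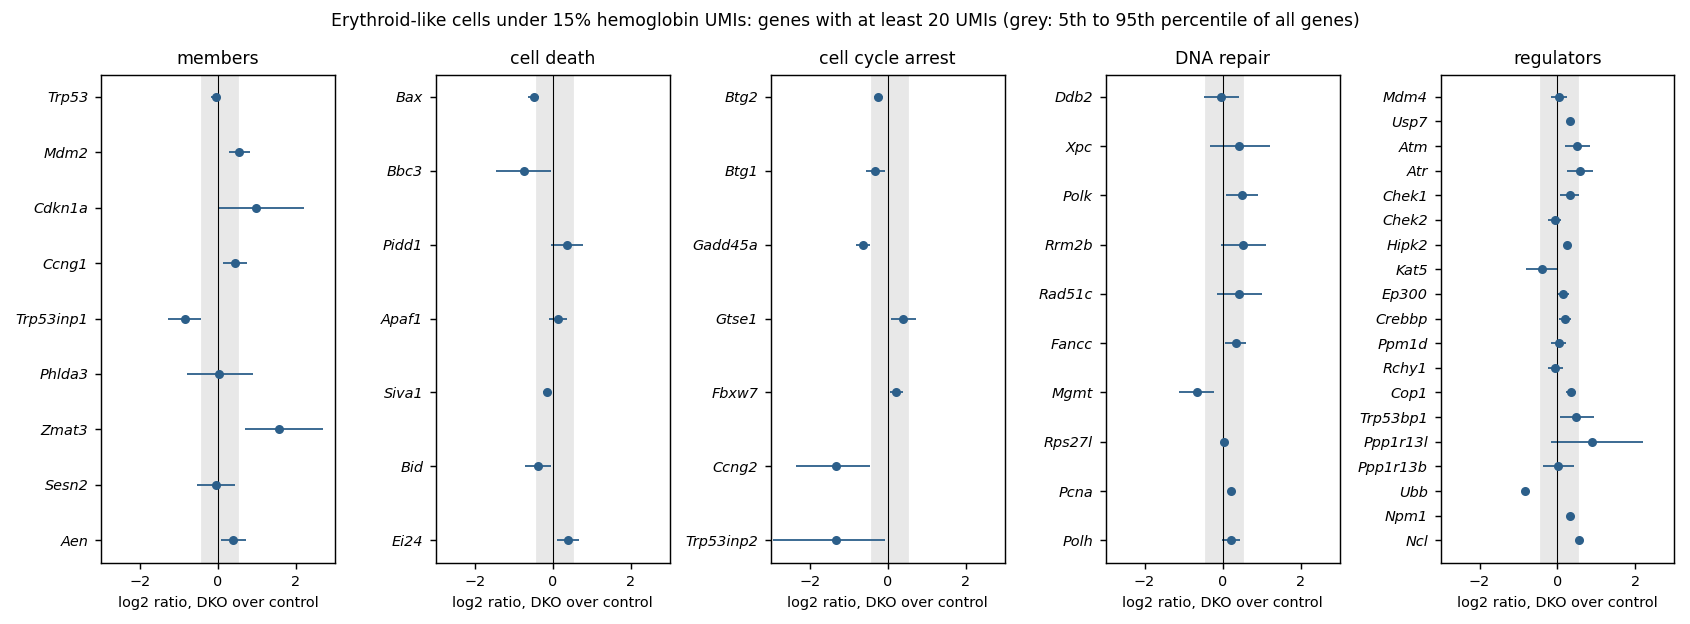
Log2 ratio of DKO over control, with 95% counting intervals, for members and for listed p53 targets and regulators in erythroid-like cells under 15% hemoglobin. Genes with at least 20 UMIs in total are drawn. The grey band spans the 5th to the 95th percentile of the 5840 genes with a mean of at least 20 CPM (-0.41 to 0.52). Of the drawn genes at that level, Mdm2 (0.54), Atr (0.57) and Ncl (0.54) lie above the band and Bax (-0.49), Gadd45a (-0.63) and Ubb (-0.83) below it. The band does not describe genes under 20 CPM. Of these, Zmat3 (1.55), Cdkn1a (0.99), Ppp1r13l (0.89) and Rrm2b (0.53) are drawn above it. Trp53inp1 (-0.85), Bbc3 (-0.73), Ccng2 (-1.32), Trp53inp2 (-1.32) and Mgmt (-0.67) are drawn below it.

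Other genes of the pathway did not share one direction in these cells of low hemoglobin. The lists held 14 cell death, 11 cell cycle arrest, 10 DNA repair and 15 metabolism and stress targets and 22 regulators. Counts given here cover the genes that reached 20 CPM. Of 5 measured cell death targets, Ei24 had an interval above 0, while Bax (171 and 121 CPM, -0.49), Siva1 (-0.16) and Bid (-0.37) had intervals below 0, and the median was -0.16. Bbc3 (Puma), a trigger of cell death that fell short of 20 CPM, had 44 and 31 UMIs, a ratio of -0.73 (-1.45 to -0.05). Of 5 cell cycle arrest targets, Gtse1 (0.40) and Fbxw7 (0.22) lay above 0 and Btg2 (-0.24), Btg1 (-0.32) and Gadd45a (-0.63) below. Under 20 CPM, Ccng2 at -1.32 (-2.36 to -0.45) and Trp53inp2 at -1.32 (-2.95 to -0.07) also lay below. Of 4 DNA repair targets, Fancc (0.33) and Pcna (0.21) lay above 0 and 0 below. Under 20 CPM, Polk at 0.49 (0.09 to 0.92) lay above and Mgmt at -0.67 (-1.12 to -0.23) below. Of 6 metabolism and stress targets, Ei24 lay above and Gpx1 (-0.15) and Tap1 (-0.61) below. Among 15 regulators of p53, 9 had intervals above 0, among them the damage kinases Atm (0.51) and Atr (0.57) and the nucleolar proteins Npm1 (0.32) and Ncl (0.54), and Ubb, a ubiquitin gene, lay below at -0.83. Of 10 ribosomal proteins known to bind Mdm2, 3 lay above 0 and 7 below, with a median of -0.12. The 20 cell cycle genes that the p53-p21-DREAM pathway lowers were split, 6 above and 6 below, with a median of 0.02. Over the 5840 genes that reached 20 CPM in these cells, 35.4% had an interval above 0 and 17.8% one below 0, with a median of 0.09. Abundant genes have narrow intervals: that of Rps20, an Mdm2-binding ribosomal protein gene, lay above 0 at a ratio of 0.07 (0.04 to 0.09).

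Over all erythroid-like cells, 48 listed genes reached 20 CPM. Of these, 1 was at least 1.5-fold higher in DKO (Mybl2, 0.59) and 1 as much lower (Ubb, -1.32), beside 1.49% and 2.18% of 2618 genes. Below 20 CPM, where no share of all genes was computed, Bbc3 (257 and 167 UMIs, -0.99), Bid (-0.63), Mgmt (-1.01) and Tap1 (-0.97) had lower and Rad51c (0.74) and Trp53bp1 (342 and 826 UMIs, 0.90) higher DKO levels. Pmaip1 (Noxa) had 11 control and 2 DKO UMIs, a ratio of -2.37 (-6.04 to -0.63). In late erythroid-like cells, all 10 Mdm2-binding ribosomal protein genes were at least 1.5-fold lower, as were 26.9% of all genes, with a median of -1.10 beside -0.22 for all genes. Without hemoglobin UMIs 9 of 10 were, beside 28.3% of genes, with a median of -0.81 beside -0.23. The larger share of DKO cells at 90% hemoglobin and over also enters these values, and its part was not tested for this list. Gadd45a, a p53 target of growth arrest, was lower in DKO under 75% hemoglobin, for example 688 and 397 CPM from 40 to 75%, a ratio of -0.79 (-0.88 to -0.71). It was higher at 90% and over, 0.79 (0.64 to 0.95), where the median over all genes was -0.60. Btg2, which slows cell division, had 286 and 642 CPM in the 75 to 90% stage, a ratio of 1.17 (1.04 to 1.30). Its ratio was -0.24 (-0.36 to -0.12) in the first stage, -0.19 (-0.28 to -0.11) from 15 to 40%, -0.04 (-0.09 to 0.02) from 40 to 75% and 0.16 (-0.68 to 1.21) at 90% and over. Control Btg2 fell steeply over these stages, from 1253 CPM at 40 to 75% to 23.2 CPM at 90% and over. Whether cells of the 2 libraries lay at different places within a stage was not tested.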

How the data were processed

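Femoral marrow of 1 control and 1 DKO mouse was flushed and made into 10x Chromium 3' v3 libraries, 1 mouse per library. The deposited matrices hold raw UMI counts per gene and barcode, which the authors made with Cell Ranger (version 7.1.0, genome mm10, per the submitters' processing notes). The control matrix holds all barcodes and the DKO matrix called cells only.

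Because of that difference, cells of the control library were called here: barcodes past a UMI limit of the order-of-magnitude kind, and those of at least 500 UMIs whose profile departed from that of empty droplets (100 UMIs or fewer; 10000 simulations, false discovery rate 0.01). Cells above 20% mitochondrial UMIs and Scrublet doublets (392 control and 204 DKO cells, each library at its own automatic threshold) were left out. Counts scaled to 10000 per cell, 2000 variable genes without the members, Ddx41 and Cgas, 30 principal components, 15 neighbors and Leiden resolution 1.0 gave 30 clusters. A cluster took the class of its markers, with at least 3 markers raised 1.5-fold; 1 cluster stayed unnamed. Counts were summed per class and library. Ratios carry exact conditional binomial intervals, levels exact Poisson intervals and shares Clopper-Pearson intervals, at 95%. UMIs of 1 cell are not independent, which the intervals ignore. A fold against 0 UMIs uses a floor of 3 UMIs and leaves out counting error in the other library. On simulated data, the ratio script was tested with known fold changes. The share of free RNA in both libraries was bounded with the profile of the control empty droplets and marker genes a class should lack. It was at most 11.6% of the UMIs of any class.

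The members and the 7 wider gene lists were chosen with earlier results of these data known. Named genes were the 10 members, Ddx41, Cgas, the 3 genes most like Trp53, Cdkn1a and Ccng1 by log2(CPM + 5), and of each list the 4 with the most UMIs and any past 1.5-fold in erythroid-like cells. Other listed genes were named after their values were seen, and so were the splits of cells under 15% hemoglobin. Alternatives changed the cell calling, UMI minimum, mitochondrial limit, doublet removal, cluster resolution, count added, filter on low levels, fold, scaling without hemoglobin, thinning, cluster weights and free RNA; 4 alternatives were added after the data were seen. Levels were not compared between genes. Python 3.11.15, numpy 2.4.6, scipy 1.17.1, scanpy 1.11.5 and igraph 0.11.9 were used.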

Additional observations from a re-analysis of the deposited data

Results flagged for a closer look

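Cdkn1a and Trp53inp1 had ratios of opposite sign in different classes. The difference between classes was not tested, since each genotype had 1 library. Cdkn1a had a log2 ratio of 3.33 (1.67 to 9.63) in mature neutrophil-like cells, on 1 control and 26 DKO UMIs. It was -1.82 in megakaryocyte-like cells against the floor of 3 UMIs, with an upper limit of -1.42 from counting error. The 2 values lie 5.15 apart on the log2 scale, but 1 rests on 1 control UMI and the other is set by the floor. In the megakaryocyte-like class, 21 of the 25 control UMIs came from 1 cell, and without it 4 control and 0 DKO UMIs remained, with an upper limit of the ratio of 1.80, so the opposite direction rests on that cell. Trp53inp1 had a ratio of 1.14 (0.85 to 1.45) in T or NK-like cells and -0.64 (-0.89 to -0.40) in plasma cell-like cells, 1.78 apart. Without the cell with the most Trp53inp1 UMIs in each library, which held 28 control and 31 DKO UMIs in the plasma cell-like class, the values were 1.14 (0.84 to 1.45) and -0.72 (-0.99 to -0.46).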

How the results depend on the processing

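No paired analysis was possible because the labels carry no replicate numbers and each genotype had 1 library. Over all alternatives and all cells plus 6 classes, 426 values of single members stayed within their counting interval, 34 moved beyond it and 9 with an interval away from 0 turned their sign. Of Trp53, the target sum and the counts of pairs, 136 stayed (counts within 1.5 times), 21 moved and 3 with an interval away from 0 turned, given here as log2 ratios. With deep barcodes alone, Trp53 was -0.47 in all cells and -1.70 in mature neutrophil-like cells, and the 9 targets turned to -0.13 in all cells and -0.26 in mature neutrophil-like cells. Mdm2 (-0.067) and Sesn2 (-0.0545) also turned in all cells and Trp53inp1 (-0.17) in mature neutrophil-like cells. The UMI thresholds of this setting lay above the mature neutrophil-like medians, so only the deeper cells of that class entered. Without hemoglobin UMIs, Trp53 was -0.22 and the targets 0.30 in all cells, the targets -0.33 in late erythroid-like cells, and Ccng1 turned to 0.042 in all cells. With clusters weighted alike, Trp53 was -0.10 in all cells and -0.12 in early erythroid-like cells, the targets 0.24 in immature neutrophil-like cells, and Ccng1 (0.12) and Sesn2 (-0.0548) turned in all cells. Thinned to 2000 UMIs, the targets were 0.45 in all cells, -0.0034 in early erythroid-like, -0.87 in late erythroid-like and 0.50 in pro-B or pre-B-like cells, Trp53 was 0.56 in mature neutrophil-like cells (from -0.39, whose interval included 0), and Mdm2 turned to -0.025 in monocyte-like cells. At resolution 0.5, late erythroid-like targets were -0.32 and Mdm2 turned to 0.13. With hemoglobin stages weighted alike, an alternative added after the data were seen, Trp53 was -0.11 in early and -0.35 in late erythroid-like cells, the late targets were -0.11 and late Trp53inp1 turned to 0.035. Pairs of a member and a class past 1.5-fold numbered 27 higher and 15 lower without a filter on low levels, 1 and 1 at 50 CPM, and 0 lower at 2-fold. The causes of these changes were not tested.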
